A study of Homo sapiens with 24 samples.

Results

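Neural progenitor cells (NPCs) carrying the hairpin sh1 against KDM2A were compared with NPCs carrying a scrambled hairpin, NC, over all genes of the deposited NPC count table that passed a count filter. These were 9860 of the 10221 genes listed in it. The cells came from the established line H9 of human embryonic stem cells, which was transduced with lentivirus at a multiplicity of infection of 20, selected with puromycin at 1 µg/ml and then induced to NPCs. The 5 NC libraries bear the genotype label WT, although they too passed through lentivirus and puromycin, and the labels name no untransduced group. The 5 sh1 libraries carried a short hairpin RNA against KDM2A that the labels also call siRNA-1. The submitters picked sh1 and a further hairpin, sh4, as the 2 most effective of 5 designs, and the labels name no clone. The series holds 24 libraries in all, among them 5 NPC libraries with sh4 and 9 from cerebral organoids at day 30. No label says that the libraries of a group were separate cultures, so each p-value below speaks only of the spread between these libraries, which may be technical.

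KDM2A removes methyl groups from lysine 36 of histone H3 and binds unmethylated CpG islands, the CG-rich stretches at many gene starts, through a zinc finger domain. NPCs are dividing cells that can give rise to neurons and glia. In them Notch signalling holds back proneural transcription factors, and sterol and fatty acid synthesis, DNA replication and growth factor signalling run with their division.

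The deposited NPC table lists only part of the genes, and nearly all of them differed between sh1 and NC. The quasi-likelihood test of edgeR, adjusted by Benjamini and Hochberg's method, gave an adjusted p under 0.05 for 99.4% of the tested genes, and the highest unadjusted p was 0.149. The table was therefore taken as selected on this comparison, and directions, sizes and functions are described in place of how many genes changed. A gene was called, and is said to have risen or fallen, where this adjusted p stayed under 0.05 and sh1 over NC reached a log2 fold change of at least 1 in size. By that rule 619 genes rose (6.28% of those tested) and 1195 fell (12.1%), and these shares stand beside every gene list below as its background. Most differences were small. The median size was 0.496 on the log2 scale, a 1.41-fold difference, and 81.6% of the genes lay under 1 in size. Large falls outnumbered large rises: 113 rises and 234 falls were at least 2 in size, and 31 rises and 41 falls at least 3. The median log2 fold change over all tested genes was 0.11, and 50.8% lay above 0. In 1692 of the 1814 called genes the lowest library of one group stood above the highest of the other, against 76.6% of all tested genes.

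**Figure D1:**
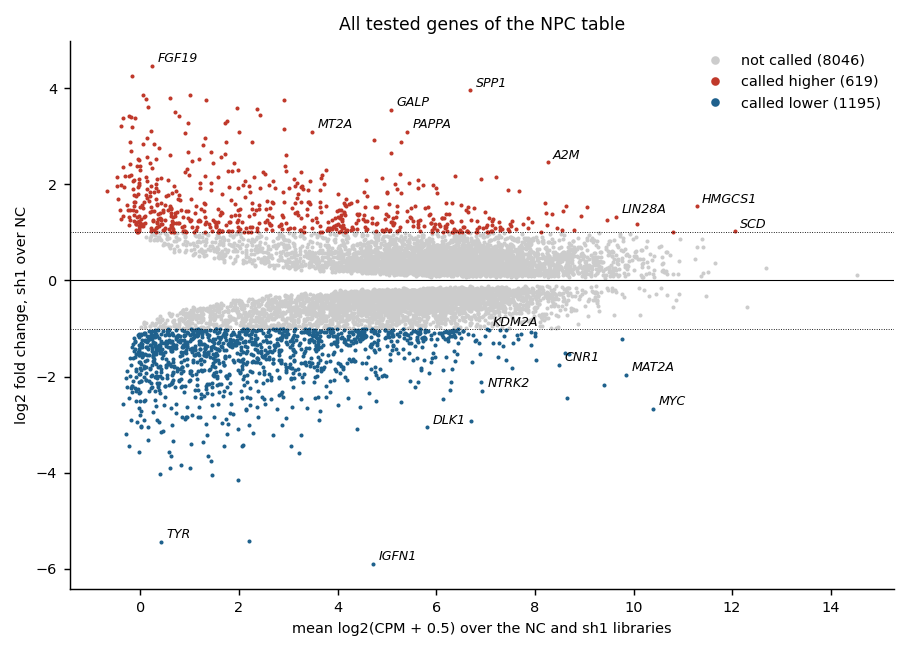
Log2 fold change of sh1 over NC against the mean level on the log2(CPM + 0.5) scale for each of the 9860 tested genes, with 1 point per gene and dotted lines at the size of 1 used for a call. The called points spread further from 0 at low levels, and few genes lie close to 0.

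Levels are given in CPM, a gene's counts per 1 M counts of the listed genes after TMM scaling, so they are levels relative to this table. The listed genes held 12.7 to 18.2 M counts in the NC libraries and 15.3 to 20.2 M with sh1. On the first principal component, with 73.8% of the variance, the NC libraries lay at -52.7 to -41.5 and the sh1 libraries at 19.6 to 22.6. NC library 5 was the NC library nearest to sh1 and had the lowest MYC share of the 5, 0.202% of counts against 0.355 to 0.488% in the others. Without it 677 genes rose and 1267 fell. Scaling by library size alone moved the median of all genes by -0.136, and 23.7% of the called genes were then higher, against 34.1% with TMM scaling. Small differences near 0 therefore carry no firm direction here.

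KDM2A, on chromosome 11, was lower in every sh1 library. Its level was 198, 183, 202, 185 and 163 CPM in NC libraries 1 to 5 and 98.1, 89.2, 94.7, 89.1 and 89.1 CPM in sh1 libraries 1 to 5. The groups did not overlap, and the log2 fold change was -1.02 ± 0.055 (SE), with an adjusted p of 5.28e-12. The fall lies just past the size of 1: without NC library 1 it was -0.993 and without NC library 3 it was -0.985, so the call is lost there.

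Several defining markers of neural progenitors were present, and others were not among the listed genes. Of 14 markers, 10 could be tested. NES, an intermediate filament of neural progenitors, and CDH2, the neural cadherin, stood at 2149 ± 66.8 and 802 ± 9.96 CPM (mean ± SD, n = 5) with NC, and at 1768 ± 112 and 719.7 ± 36.5 CPM with sh1. SOX1, FABP7, PROM1, PTPRZ1 and SLC1A3 rose and NOTCH1 fell. The sum of the 10, most of it NES, was 3280 to 3520 CPM with NC and 2970 to 3200 CPM with sh1. SOX2, SOX3 and VIM are not listed, and HES5 did not pass the filter. Markers of pluripotent cells were also counted in both groups, and the sum of all 9 was 1210 to 1360 CPM with NC and 1980 to 2150 CPM with sh1. LIN28A made up the largest part of the sum and of its rise, with means of 511 CPM with NC and 1280 CPM with sh1. The means of NANOG, TDGF1, PRDM14 and ZFP42 were at most 1.35 CPM with NC and 4.65 to 7.35 CPM with sh1. POU5F1, a core pluripotency factor, went the other way from most of the 9 markers. It was at 412, 342, 429.9, 366 and 228 CPM with NC and 95.3, 94.2, 89.3, 103 and 119 CPM with sh1. The 5 tested neuron markers summed to 371 to 476 CPM with NC and 177 to 254 CPM with sh1. The 7 mesenchyme markers summed to 6370 to 7070 CPM and 4770 to 5790 CPM, most of it the collagen gene COL3A1, at 6157 ± 284 and 4230 ± 396 CPM. Of those 7 markers 2, LUM and THY1, rose and none fell, and COL1A2, DCN and TWIST1 had log2 fold changes of 0.83, 0.61 and 0.80, not called. The 5 epithelium markers summed to 185 to 208 and 241 to 273 CPM, of which KRT18 made up most, and the 5 endothelium markers to 51.6 to 62.0 and 131 to 151 CPM. Among the epithelium markers EPCAM and CDH1 rose, CLDN3 and CLDN4 fell and KRT18 was not called. The endothelium markers also split, with 2 that rose and 2 that fell. Of 5 endoderm markers only APOB was tested, at 0.991 to 1.82 CPM with NC and 0 to 0.391 CPM with sh1, and no microglia marker was tested. In bulk RNA fewer cells of a type and less RNA per cell cannot be told apart, and the part of these markers in the results below was not tested.

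The metallothionein genes, a cluster on chromosome 16 whose small cysteine-rich proteins bind zinc and copper, held the largest rises of any list by its median. Of 12 tested genes of metallothioneins and zinc transport, 7 rose and 2 fell, with a median log2 fold change of 2.30. The promoters of 3 of them are shown because they carry repeats of the metal response element core, the motif read by the zinc sensor MTF1 (letters TGCACNC or TGCGCNC on either strand). Each line gives reference sequence upstream of the gene's start on its own strand, from RefSeq with build GRCh38.p14, and the capitals mark matches.
MT2A: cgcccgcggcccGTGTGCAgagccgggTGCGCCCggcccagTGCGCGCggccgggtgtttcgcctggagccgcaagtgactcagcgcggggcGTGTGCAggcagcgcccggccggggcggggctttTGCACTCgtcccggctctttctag
MT1X: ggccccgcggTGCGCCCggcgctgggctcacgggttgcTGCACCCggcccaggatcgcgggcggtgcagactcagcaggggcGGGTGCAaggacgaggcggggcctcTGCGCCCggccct
MT1H: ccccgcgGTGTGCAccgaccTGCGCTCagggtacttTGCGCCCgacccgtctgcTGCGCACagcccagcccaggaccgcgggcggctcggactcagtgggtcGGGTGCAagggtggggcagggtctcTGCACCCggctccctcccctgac
These stretches lie at chr16:56608404-56608553, chr16:56682310-56682429 and chr16:56669634-56669783, all on the plus strand, and they end 31, 41 and 31 bases before the start. In the whole window of 250 bases before to 50 after the start, MT2A and MT1H held 8 matches each and MT1X held 4. At least 1 match stood in 29.3% of all 27305 RefSeq promoters and at least 2 in 8.59%. Of the list, 8 genes had a promoter in the table and 4 had a match. A match describes the letters only.

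MT2A, the most widely expressed metallothionein, was at 2.66, 2.99, 3.57, 3.98 and 5.27 CPM with NC and at 24.8, 30.4, 21.5, 31.3 and 49.0 CPM with sh1. MT1X was at 0.887, 1.29, 0.874, 1.71 and 2.504 CPM with NC and 10.6, 15.9, 10.7, 16.3 and 26.6 CPM with sh1. In both genes the lowest sh1 library stood above the highest NC library, and sh1 library 5 and NC library 5 were the highest of their groups. The log2 fold changes were 3.09 ± 0.28 for MT2A and 3.44 ± 0.38 for MT1X, with adjusted p-values of 5.29e-09 and 9.73e-08. The 4 other metallothioneins, MT1E, MT1F, MT1G and MT1H, had means under 1 CPM with NC and between 1.57 and 10.9 CPM with sh1. The zinc importer SLC39A8 rose from 16.0 ± 1.39 to 46.4 ± 2.13 CPM. SLC30A10, an exporter of manganese and zinc at the cell surface, fell from 9.03 ± 1.37 to 3.01 ± 0.868 CPM.

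Genes of cholesterol and fatty acid synthesis were higher together. Of 34 tested genes 11 rose and 1 fell, 33 lay above 0, and the median log2 fold change was 0.77. Summed over the list the level was 13660 to 15490 CPM with NC and 26550 to 29560 CPM with sh1, so the groups did not overlap. HMGCS1, which makes the precursor of mevalonate, was at 1301, 1494, 1294, 1460 and 1790 CPM with NC and 3595, 4870, 3647, 4452 and 4834 CPM with sh1. Its log2 fold change was 1.54 ± 0.10 (adjusted p = 8.06e-11), and all 5 sh1 libraries were at least as high as 2 times the highest NC library. Elsewhere in the sterol pathway ACAT2, which joins acetyl units, and FDPS, which makes farnesyl diphosphate, rose from 168 ± 16.9 to 514 ± 9.68 and from 305 ± 17.1 to 778 ± 21.3 CPM. The deposited counts of ACAT2 were not all whole, which can arise where genes share reads. ACSS2, which turns acetate into acetyl-CoA, was at 84.9, 89.1, 87.6, 91.8 and 100.1 CPM with NC and 342, 333, 338, 350.0 and 322 CPM with sh1, with 1.89 ± 0.064 as the log2 fold change.

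Desaturases and acyl-CoA enzymes moved with the sterol genes. FADS1, a desaturase of polyunsaturated fatty acids, was at 247, 330.4, 243, 309 and 452 CPM with NC and 957, 933, 946, 897 and 812 CPM with sh1. NC library 5 was the highest of its group and sh1 library 5 the lowest of its own, and the groups still did not overlap (log2 fold change 1.52 ± 0.12). SCD, which makes monounsaturated fatty acids, had the greatest rise of any called gene in CPM, with 2813, 2993, 2744, 3004 and 3308 CPM in NC and 5435, 6404, 5442, 6129 and 6855 CPM in sh1. Its log2 fold change of 1.03 ± 0.088 lies at the edge of the rule: it was 0.981 without sh1 library 5 and 0.889 with scaling by library size alone, and the call is lost in both. ACSL4, which activates arachidonic acid and is not on the list, rose from 231 ± 9.41 to 682 ± 64.5 CPM. The 1 gene of the list that fell, ABCG1, exports cholesterol from cells and was low in both groups, at 1.29 ± 0.383 and 0.470 ± 0.153 CPM. The core of the sterol regulatory element (letters TCACNCCAC, either strand) stood in none of the 25 listed genes with a promoter in the table and in 1.15% of all promoters.

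Replication genes were shifted upward, most of them by less than the size needed for a call. Of 61 tested genes of DNA replication 57 lay above 0, 8 rose and none fell, and the median was 0.69. The summed level was 5056 to 5507 CPM with NC and 7929 to 8179 CPM with sh1. Of 60 mitosis genes 56 lay above 0 with a median of 0.56, and 1 rose, CDC25A, a phosphatase that activates cyclin-dependent kinases (log2 fold change 1.01). The CDC25A call was lost without NC library 1 (0.998) and with scaling by library size alone (0.877). Promoters of MCM6, a subunit of the replicative helicase, and E2F2, a transcription factor of cell cycle genes, are shown because both genes rose and both carry an E2F site (letters TTTCCCGC or TTTGGCGC on either strand, in capitals).
MCM6: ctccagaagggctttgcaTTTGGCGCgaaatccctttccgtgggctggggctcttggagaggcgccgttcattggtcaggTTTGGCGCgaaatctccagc
E2F2: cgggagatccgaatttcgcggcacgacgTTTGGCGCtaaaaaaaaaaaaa
They lie at chr2:135876514-135876613 and chr1:23531254-23531303 (GRCh38.p14 of RefSeq, minus strand). An E2F site stood in 19 of the 49 listed genes with a promoter (38.8%), among them 4 of the 5 that rose and 15 of the 44 that were not called. It stood in 2.31% of all promoters and in 3.66% of those of tested genes.

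MCM6 was at 120.4, 146, 121, 151 and 179.6 CPM with NC and 310.1, 334, 313, 331 and 336 CPM with sh1. The sh1 libraries lay close together, while NC library 5 was the highest NC library (log2 fold change 1.18 ± 0.085). CDC6, which loads the helicase onto origins, was at 54.7, 49.6, 49.0, 53.4 and 54.9 CPM and 159, 154, 160.1, 158 and 151 CPM, with no overlap and a log2 fold change of 1.58 ± 0.06. CCND1, cyclin D1 of the G1 phase, varied little between libraries, at 187, 179, 187, 186 and 180.2 CPM with NC and 491, 485, 486, 497 and 479 CPM with sh1. Its log2 fold change was 1.41 ± 0.036 with an adjusted p of 3.53e-16. With sh4, set against the same NC libraries, it was 0.68, and between the hairpins the log2 difference was 0.72 ± 0.035 (adjusted p = 4.12e-12). POLE2, a DNA polymerase epsilon subunit, rose from 10.8 ± 1.75 to 25.6 ± 1.63 CPM and E2F2 from 8.11 ± 1.92 to 18.1 ± 1.51 CPM.

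Other growth lists moved less. Ribosome biogenesis genes had a median of 0.40 over 52 genes, 44 of them above 0, and none was called. Nucleotide and one-carbon synthesis had a median of 0.53 over 28 genes, with 26 above 0, and nuclear genes of oxidative phosphorylation 0.24 over 49. The 17 listed genes of ribosomal proteins had a median of 0.11, which was -0.0322 with scaling by library size alone, and none was called.

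Genes of the pluripotent state and of early embryonic growth control stood higher with sh1, with POU5F1 and 2 KLF genes as exceptions. Of 24 tested genes 16 rose and 3 fell, and the median was 1.39. LIN28A, an RNA-binding protein that blocks maturation of let-7 microRNAs, was at 435, 507, 441, 533 and 636 CPM with NC and 1328, 1271, 1236, 1255 and 1287 CPM with sh1. Every sh1 library stood above 2 times the NC libraries other than NC 5 (log2 fold change 1.32 ± 0.076, adjusted p = 1.29e-11). LIN28B, its paralogue, rose from 123 ± 4.25 to 269 ± 27.1 CPM, a call that is lost with scaling by library size alone (log2 fold change 0.996). TRIM71, a let-7 target that represses differentiation transcripts, was at 219, 212, 225, 238 and 250.1 CPM and 650.1, 673, 629, 600.4 and 575 CPM, with a log2 fold change of 1.45 ± 0.051. TERT, the catalytic subunit of telomerase, was near the detection limit with NC, at 0.261, 0.309, 0.146, 0.166 and 0.417 CPM, and at 1.81, 0.659, 1.79, 1.28 and 1.49 CPM with sh1. The groups did not overlap, but sh1 library 2 was under 1 CPM (log2 fold change 2.35 ± 0.38, adjusted p = 1.23e-05). Of 7 tested germ line and cancer testis genes 4 rose and 3 fell. HORMAD1 and TEX15, both of meiotic chromosomes, rose from 1.11 ± 0.222 to 9.57 ± 0.766 and from 2.88 ± 0.616 to 17.7 ± 1.58 CPM.

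SPP1, a secreted phosphoprotein of the extracellular matrix, had the largest rise among genes with a mean log2 CPM of at least 3, from 26.1 ± 2.15 to 404 ± 52.3 CPM (log2 fold change 3.96 ± 0.13). GALP, a neuropeptide of the galanin family, was at 7.04, 10.3, 5.82, 11.3 and 14.1 CPM with NC and 118, 119.7, 106, 112 and 125 CPM with sh1. The groups lay far apart, with a log2 fold change of 3.56 ± 0.13 and an adjusted p of 2.31e-14. PAPPA, a protease that frees insulin-like growth factors from their binding proteins, was at 12.2, 14.7, 13.8, 15.5 and 15.9 CPM and 138, 131, 140.5, 119 and 91.0 CPM. Its sh1 library 5 was the lowest of its group and still more than 5 times the highest NC library (log2 fold change 3.10 ± 0.13). A2M, a broad protease inhibitor, was at 123, 132, 122, 133 and 143 CPM and 749, 708, 729.5, 718 and 684 CPM, with a log2 fold change of 2.46 ± 0.12. Its counts were not all whole.

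Ligands and receptors of vessels and nerves were among them. APLN, the ligand of the apelin receptor, was at 12.6, 13.2, 13.8, 14.3 and 16.9 CPM with NC and 85.3, 97.0, 90.5, 111 and 137 CPM with sh1 (log2 fold change 2.88 ± 0.18). KDR, a VEGF receptor, was at 8.61, 8.70, 7.28, 10.3 and 12.1 CPM and 87.2, 64.8, 84.9, 67.4 and 58.6 CPM (log2 fold change 2.93 ± 0.19). Neither gene's groups overlapped. The endothelial markers CDH5 and VWF fell in the same libraries, from 20.9 ± 5.69 to 5.96 ± 1.28 and from 2.27 ± 0.441 to 0.475 ± 0.100 CPM, while TEK, an angiopoietin receptor, rose from 22.3 ± 1.85 to 59.7 ± 4.51 CPM. PLXND1, a semaphorin receptor, was at 42.3, 35.9, 41.4, 39.3 and 35.9 CPM with NC and 199, 147, 206, 181 and 146 CPM with sh1, where libraries 2 and 5 were the lowest (log2 fold change 2.17 ± 0.15). GREM1, a secreted antagonist of BMPs whose counts were not all whole, was nearly constant with NC, at 18.2, 17.9, 18.2, 17.6 and 17.6 CPM, and varied with sh1, at 101, 80.2, 105, 73.8 and 54.3 CPM. Its log2 fold change was 2.21 ± 0.15, and sh1 library 5 was the lowest of its group, above every NC library.

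Transporters and channels were also among the highest. SLC7A8, a carrier of large neutral amino acids, was at 11.9, 12.7, 14.6, 12.5 and 15.3 CPM with NC and 89.8, 72.1, 89.1, 83.2 and 85.4 CPM with sh1 (log2 fold change 2.65 ± 0.079, adjusted p = 1.71e-15). KCNJ6, a G protein-gated potassium channel, was at 5.27, 5.05, 5.02, 6.68 and 6.42 CPM and 29.2, 27.1, 26.2, 25.5 and 23.9 CPM (log2 fold change 2.20 ± 0.12). The groups were again separate. UNC13A, which primes synaptic vesicles, and GCNT4, an O-glycan branching enzyme, rose by 2.26 and 2.13 on the log2 scale. CDH6, a cadherin of the neural tube and neural crest, was at 541, 436, 503, 442 and 384 CPM with NC and 1252, 1076, 1282, 1079 and 818 CPM with sh1, where library 5 was the lowest (log2 fold change 1.26 ± 0.13). Of 178 solute carriers named by symbol 12 rose and 31 fell, with a median of -0.29. VARS1, the valine tRNA ligase, was the 1 gene of 26 in the amino acid and ATF4 list that rose, at 85.2, 83.9, 78.8, 81.7 and 96.1 CPM with NC and 213, 186, 209.8, 224 and 224 CPM with sh1 (log2 fold change 1.31 ± 0.057).

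**Figure D2:**
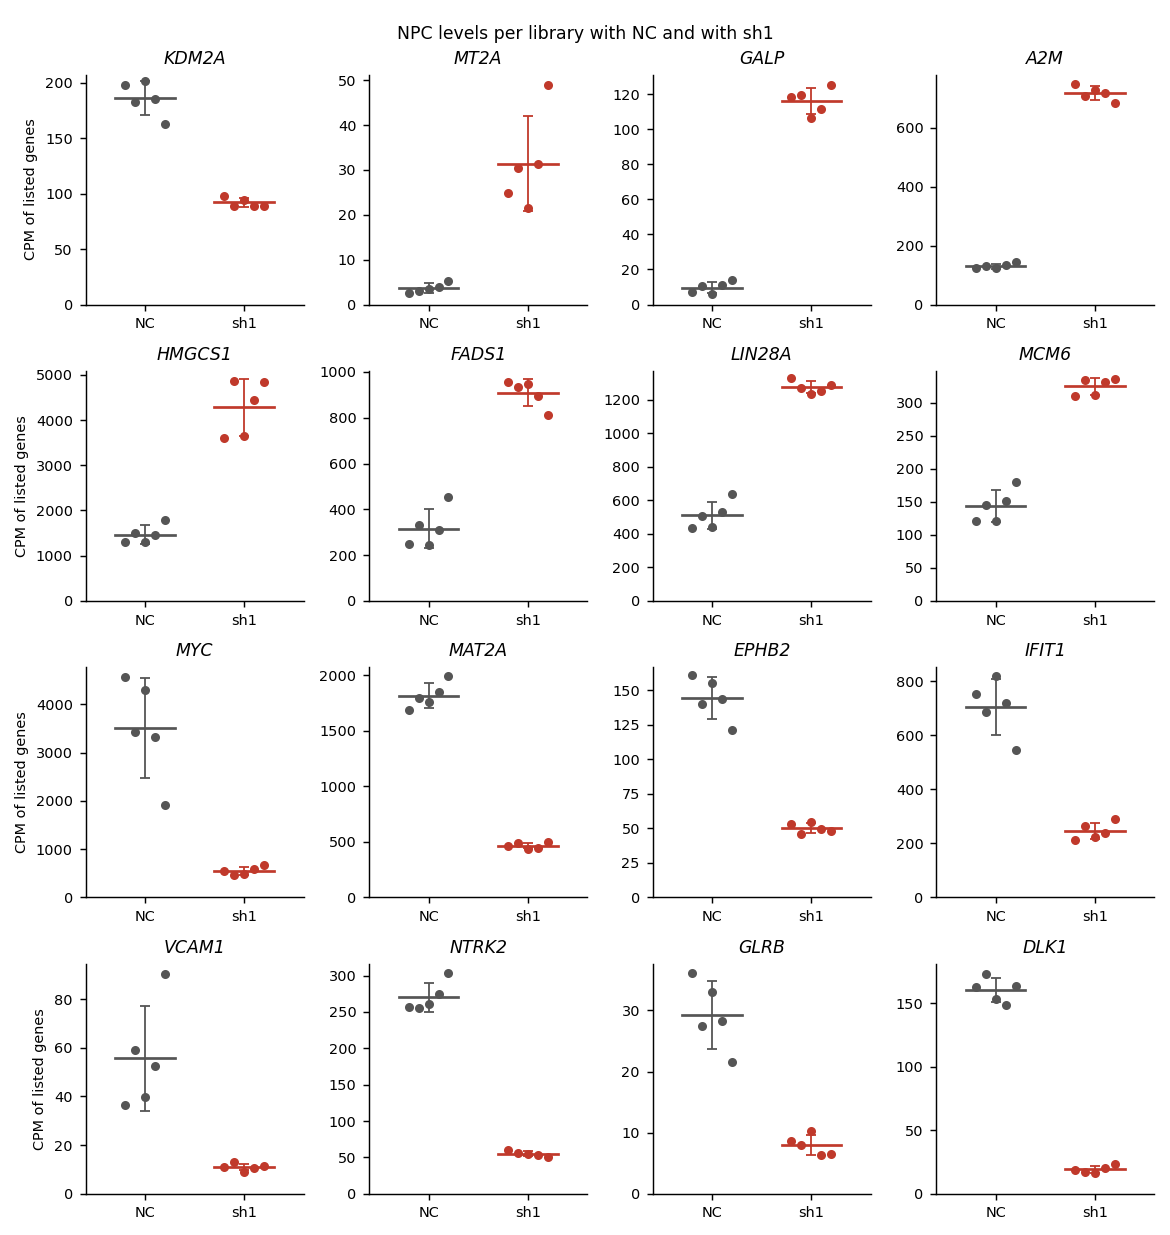
CPM of listed genes in each NC library (grey) and each sh1 library (red) for 16 genes, with libraries 1 to 5 from left to right within a group, a bar at the mean and SD as the error bar. In every panel the groups do not overlap, and NC library 5 lies toward the sh1 libraries for KDM2A, MYC, EPHB2, IFIT1 and LIN28A, among others.

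The falls of MYC and MAT2A were the greatest of called genes in CPM. MYC, a growth-promoting transcription factor, was at 4566, 3431, 4294, 3319 and 1919 CPM with NC and 538, 473, 479.7, 594 and 665 CPM with sh1. The NC libraries differed by more than 2 times among themselves, and the lowest, NC 5, was still above every sh1 library (log2 fold change -2.67 ± 0.18). MAT2A, which makes S-adenosylmethionine, the methyl donor for histone and RNA methylation, was at 1685, 1792, 1763, 1851 and 1994 CPM and 464, 487, 436, 447 and 494 CPM. Both groups were tight and lay far apart, with a log2 fold change of -1.96 ± 0.056 and an adjusted p of 8.03e-16, although its counts were not all whole.

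Of 26 tested genes of amino acid supply and the ATF4 stress response 5 fell and 1 rose, and the median was 0.16. DDIT3, a transcription factor induced by endoplasmic reticulum stress, was at 72.3, 113, 82.7, 113 and 128 CPM with NC and 22.5, 22.1, 20.9, 19.5 and 24.2 CPM with sh1 (log2 fold change -2.22 ± 0.14). TRIB3, a pseudokinase induced by the same pathway, was at 134, 215, 140.0, 202 and 238 CPM and 78.9, 70.2, 74.3, 75.01 and 80.0 CPM (log2 fold change -1.30 ± 0.13). In both genes NC libraries 1 and 3 were the lowest of the NC group, and no sh1 library reached them. SARS1, a tRNA ligase and 1 of the 2 most abundant members of the list, was at 789 ± 49.1 and 508 ± 10.3 CPM and was not called. The other, SLC38A2, had a log2 fold change of 0.60, also not called. Of the 26 genes 15 lay above 0.

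Interferon-stimulated genes, which encode antiviral effectors and sensors, mostly fell. Of 61 tested genes 35 fell, none rose, and the median was -1.09. The summed level was 4676 to 5724 CPM with NC and 2646 to 3267 CPM with sh1. Promoters of 4 genes that fell are shown because they hold the interferon-stimulated response element (the letters GAAA, any 2 bases and GAAA again on either strand, in capitals, where overlapping matches run together), the site bound by the factor that interferon activates.
ISG15: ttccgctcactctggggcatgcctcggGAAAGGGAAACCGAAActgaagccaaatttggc
IFIT1: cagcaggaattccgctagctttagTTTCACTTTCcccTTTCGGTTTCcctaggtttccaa
IFIT3: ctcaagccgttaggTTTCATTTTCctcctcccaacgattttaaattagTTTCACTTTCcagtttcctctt
IFI6: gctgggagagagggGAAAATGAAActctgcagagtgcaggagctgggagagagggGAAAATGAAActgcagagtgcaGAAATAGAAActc
They lie at chr1:1013357-1013416, chr10:89392483-89392542 and chr10:89327827-89327896 on the plus strand and at chr1:27672273-27672362 on the minus strand (GRCh38.p14 of RefSeq). The element stood in 28 of the 45 listed genes with a promoter in the table (62.2%) and in 3.65% of all promoters. It stood in 14 of the 24 that fell and in 14 of the 21 that were not called, so its presence did not separate the genes past the rule from the rest. Over all tested genes it stood in 6.85% of the promoters of genes that fell and in 1.78% of those that rose.

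IFIT1, which binds viral RNA ends, was at 752, 686, 821, 720.3 and 544 CPM with NC and 213, 264, 224, 237 and 288 CPM with sh1. ISG15, a ubiquitin-like protein, was at 239.8, 209, 267, 238 and 161 CPM and 86.6, 80.6, 82.0, 92.7 and 112 CPM. In both genes NC library 5 was the lowest NC library and sh1 library 5 the highest sh1 library, and a gap remained between them. The log2 fold changes were -1.52 ± 0.098 and -1.29 ± 0.12. IFIT3, of the same family as IFIT1 and with counts not all whole, fell from 265 ± 35.2 to 87.2 ± 12.3 CPM, and IFI6, a protein that limits virus replication, from 65.2 ± 1.19 to 30.6 ± 3.91 CPM. RSAD2, an antiviral enzyme, had the largest fall of the list, from 12.6 ± 0.649 to 1.36 ± 0.594 CPM. OAS1, a sensor of double-stranded RNA, and XAF1, which promotes cell death, fell from 6.22 ± 0.558 to 1.40 ± 0.550 and from 5.78 ± 0.998 to 0.966 ± 0.253 CPM. With sh4, against the same NC libraries, 19 genes of the list fell and 1 rose, with a median of -0.45. OAS1 and XAF1 were not among those falls, with sh4 log2 fold changes of -0.08 and 0.04. For these 2 genes sh1 over sh4 was -2.04 ± 0.18 and -2.60 ± 0.18 (adjusted p = 3.9e-08 and 8.94e-10). In 15 of the 61 genes sh1 was called lower than sh4 and in none higher, against 2.44% lower and 2.18% higher over all tested genes.

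Falls without a rise were also seen in antigen presentation and complement. Of 23 tested genes 9 fell and none rose, with a median of -0.72. HLA-B, a class I molecule whose counts were not all whole, was at 70.0, 71.9, 67.6, 66.8 and 70.3 CPM with NC and 28.3, 27.6, 27.3, 28.1 and 29.7 CPM with sh1, a log2 fold change of -1.30 ± 0.081 between 2 tight groups. TAP1, the peptide transporter, fell from 10.3 ± 0.705 to 4.39 ± 0.745 CPM, and CFB, a complement protease, from 9.44 ± 1.89 to 2.22 ± 0.569 CPM. B2M, the light chain of class I, was at 384 ± 35.3 and 237 ± 21.7 CPM and was not called. For HLA-B, TAP1 and CFB the sh1 libraries lay under the sh4 libraries, with sh1 over sh4 at -1.06 ± 0.081, -1.31 ± 0.11 and -1.37 ± 0.26 on the log2 scale.

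Of 31 tested genes of NF-kB and cytokine signalling 15 fell and 2 rose, with a median of -0.99. VCAM1, an adhesion molecule for leukocytes, was at 36.4, 59.1, 40.0, 52.7 and 90.5 CPM with NC and 11.1, 12.9, 9.11, 10.7 and 11.3 CPM with sh1. The NC libraries were spread, with NC 5 the highest, and the sh1 libraries were not (log2 fold change -2.35 ± 0.20). TRAF1, an adaptor of tumour necrosis factor receptors, was at 8.77, 8.70, 9.83, 9.28 and 12.9 CPM and 2.62, 2.80, 2.29, 3.23 and 2.47 CPM (log2 fold change -1.88 ± 0.14). ACKR3, a scavenger receptor for the chemokine CXCL12, was at 9.55, 7.83, 9.97, 8.28 and 5.32 CPM and 1.14, 0.988, 0.727, 0.614 and 0.308 CPM, with all 5 sh1 libraries near or under 1 CPM and a log2 fold change of -3.45 ± 0.24. CXCL10, an interferon-induced chemokine, fell from 15.7 ± 1.15 to 4.08 ± 0.985 CPM. IL11, a cytokine of the IL6 family, was 1 of the 2 that rose, from 0.325 ± 0.0816 to 1.43 ± 0.216 CPM.

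Neuronal lists held more falls than rises, as did all tested genes together. The median of the proneural and neuron list, -1.09, was as low as that of the interferon list. Of its 24 tested genes 14 fell and 1 rose. ATOH1, a proneural transcription factor of the dorsal hindbrain, was at 7.04, 6.08, 4.44, 4.80 and 4.38 CPM with NC and 0.604, 0.439, 0.615, 0.512 and 0.462 CPM with sh1 (log2 fold change -3.35 ± 0.21). TUBB3, a tubulin of young neurons whose counts were not all whole, was at 304, 375, 323, 362 and 409 CPM and 159, 146, 145, 180.0 and 219 CPM (log2 fold change -1.06 ± 0.10). L1CAM, an adhesion molecule of growing axons, was at 106, 110.2, 109.6, 108 and 109 CPM and 34.8, 31.0, 33.2, 37.9 and 42.9 CPM, with almost no spread in the NC group (log2 fold change -1.59 ± 0.069). None of these 3 genes overlapped between groups. LHX5, a homeobox gene of interneurons and the diencephalon, was the 1 that rose, from 0.268 ± 0.0610 to 1.80 ± 0.620 CPM. TUBB3 and L1CAM were lower with sh1 than with sh4, with log2 differences of -1.002 ± 0.10 and -1.01 ± 0.07, and ATOH1 had a difference of -0.23 ± 0.34 between hairpins (adjusted p = 0.667).

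Of 41 tested transmitter receptors 19 fell and 4 rose, with a median of -0.87. GLRB, the subunit that anchors glycine receptors, was at 36.1, 27.4, 33.0, 28.2 and 21.6 CPM with NC and 8.59, 7.96, 10.3, 6.35 and 6.47 CPM with sh1 (log2 fold change -1.89 ± 0.16). GRIN2B, an NMDA receptor subunit, was at 27.9, 19.9, 28.5, 21.1 and 18.0 CPM and 11.3, 10.98, 9.39, 8.86 and 7.19 CPM (log2 fold change -1.27 ± 0.14). In both the highest sh1 library stood under the lowest NC library. The most abundant receptor of the list, GRIA1 of the AMPA class, was at 453 ± 8.49 and 273 ± 5.14 CPM, a log2 fold change of -0.73 ± 0.061 that misses the size of 1. CNR1, the cannabinoid receptor of neurons and not on the list, was at 732, 645, 709, 643 and 586 CPM with NC and 204, 209, 199.9, 194 and 177 CPM with sh1 (log2 fold change -1.75 ± 0.081).

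Channel and synapse genes were mixed. They held more falls than rises, as did all tested genes together, of which 12.1% fell and 6.28% rose. Of 61 ion channel genes 17 fell and 12 rose (median -0.48). CACNA1H, a T-type calcium channel, fell from 10.3 ± 1.45 to 2.10 ± 0.374 CPM and KCNMA1, the large-conductance potassium channel, from 3.44 ± 0.548 to 0.765 ± 0.141 CPM. Of 53 synapse genes 9 fell and 7 rose (median -0.43). SYT9, a calcium sensor of secretory vesicles, fell from 4.23 ± 0.570 to 0.387 ± 0.149 CPM, and CAMK2B, a synaptic kinase, from 4.41 ± 0.595 to 0.609 ± 0.260 CPM. A motor and a traffic gene of axons outside the list fell from higher levels. KIF1A, a kinesin that carries synaptic vesicle precursors, was at 467, 448, 469, 455 and 471 CPM with NC and 183, 129, 180.1, 143 and 101 CPM with sh1. RAB6B, a neuronal Golgi GTPase, was at 101, 89.6, 97.0, 97.2 and 74.1 CPM and 18.2, 14.5, 17.7, 14.9 and 14.4 CPM. The KIF1A levels varied nearly 2 times among sh1 libraries and those of RAB6B little, and the log2 fold changes were -1.65 ± 0.12 and -2.53 ± 0.10.

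Of 58 axon guidance genes 13 fell and 3 rose (median -0.53). EPHB2, a receptor for ephrin-B ligands, was at 161, 140.2, 156, 144 and 121 CPM with NC and 53.1, 45.9, 54.4, 49.9 and 47.8 CPM with sh1 (log2 fold change -1.52 ± 0.071), and its relative EPHB3 fell as well, with -1.68 ± 0.14. SLIT3, a repellent for axons, fell from 23.4 ± 1.01 to 6.32 ± 0.763 CPM, and the semaphorin receptor PLXNB3 from 2.47 ± 0.626 to 0.599 ± 0.287 CPM, while PLXND1 of the same family rose as given above. Of 55 cadherin and adhesion genes 17 fell and 6 rose (median -0.43). The falls included CNTN3, a contactin, from 31.2 ± 1.55 to 8.31 ± 1.36 CPM, and ITGB4, an integrin of hemidesmosomes, from 12.6 ± 1.83 to 2.10 ± 0.226 CPM. OPCML, a cell adhesion molecule anchored by lipid whose counts were not all whole, fell from 30.2 ± 1.39 to 4.56 ± 0.624 CPM. The largest fall among genes with a mean log2 CPM of at least 3 was that of IGFN1, an immunoglobulin and fibronectin domain protein, from 194 ± 44.5 to 3.31 ± 1.14 CPM (log2 fold change -5.89 ± 0.20). Other falls at that level included those of EPB41L4B, a membrane skeleton protein, from 24.6 ± 0.693 to 3.89 ± 0.351 CPM, and PAPLN, a matrix protein, from 53.9 ± 11.5 to 8.57 ± 1.68 CPM.

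Of 21 tested Notch pathway genes 9 fell and none rose, and the median was -0.79. NOTCH1, a receptor that maintains progenitors, was at 152, 113, 142, 114 and 81.4 CPM with NC and 51.3, 46.5, 56.8, 57.3 and 56.7 CPM with sh1. The NC libraries ranged widely, with NC 5 the lowest, and the sh1 libraries lay together (log2 fold change -1.16 ± 0.12). DTX3, a ubiquitin ligase of the deltex family, was at 61.5, 64.3, 65.2, 61.4 and 57.8 CPM and 15.4, 14.0, 15.2, 16.1 and 17.7 CPM (log2 fold change -1.98 ± 0.065). Of the target genes, HES4 and HEY1 fell from 35.01 ± 4.70 to 11.3 ± 4.39 and from 10.7 ± 0.191 to 3.93 ± 0.438 CPM. DLK1, a noncanonical ligand from an imprinted locus on chromosome 14, was at 162, 173, 154, 149 and 164 CPM with NC and 18.4, 17.1, 16.6, 20.5 and 23.3 CPM with sh1. It had the largest fall of the list, -3.06 ± 0.086 on the log2 scale with an adjusted p of 8.03e-16, and the groups lay far apart. RTL1, from the same imprinted locus, fell from 6.74 ± 1.30 to 1.30 ± 0.535 CPM. Of 26 tested imprinted genes 5 rose and 3 fell, and among those that rose PLAGL1, a zinc finger growth regulator, went from 33.9 ± 4.08 to 120.5 ± 4.69 CPM and PHLDA2, expressed from the maternal copy, from 1.05 ± 0.120 to 4.31 ± 0.654 CPM.

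Growth factors and their receptors split. Of 45 tested genes of FGFs, EGF ligands and receptor tyrosine kinases 10 rose and 10 fell. FGF19, an endocrine fibroblast growth factor, had the largest rise, from near 0 with NC, 0.0818 ± 0.0421 CPM, to 1.88 ± 0.0820 CPM with sh1 (log2 fold change 4.47 ± 0.26). NTRK2, the receptor of brain-derived neurotrophic factor, was at 258, 256, 261, 274 and 304 CPM with NC and 60.1, 56.3, 55.1, 52.7 and 50.5 CPM with sh1. Its groups were tight and far apart (log2 fold change -2.30 ± 0.056, adjusted p = 3.53e-16). GDNF, a neurotrophic ligand, fell from 3.46 ± 0.850 to 0.501 ± 0.431 CPM, and HGF, the ligand of MET, from 1.42 ± 0.480 to 0.360 ± 0.111 CPM. Of 49 mesenchyme and matrix genes 12 rose and 2 fell (median 0.47), with MMP2, a gelatinase, rising from 58.9 ± 4.98 to 169.7 ± 13.3 CPM. SFRP4, a secreted modulator of WNT ligands, was at 632, 679.5, 619, 674 and 694 CPM with NC and 216, 230.0, 216, 235 and 261 CPM with sh1, with no overlap (log2 fold change -1.51 ± 0.069). Of 288 zinc finger genes named by symbol 4 rose, 19 fell and 265 were not called, with a median of -0.28. Both shares were smaller than those of all tested genes, of which 6.28% rose and 12.1% fell.

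**Figure D3:**
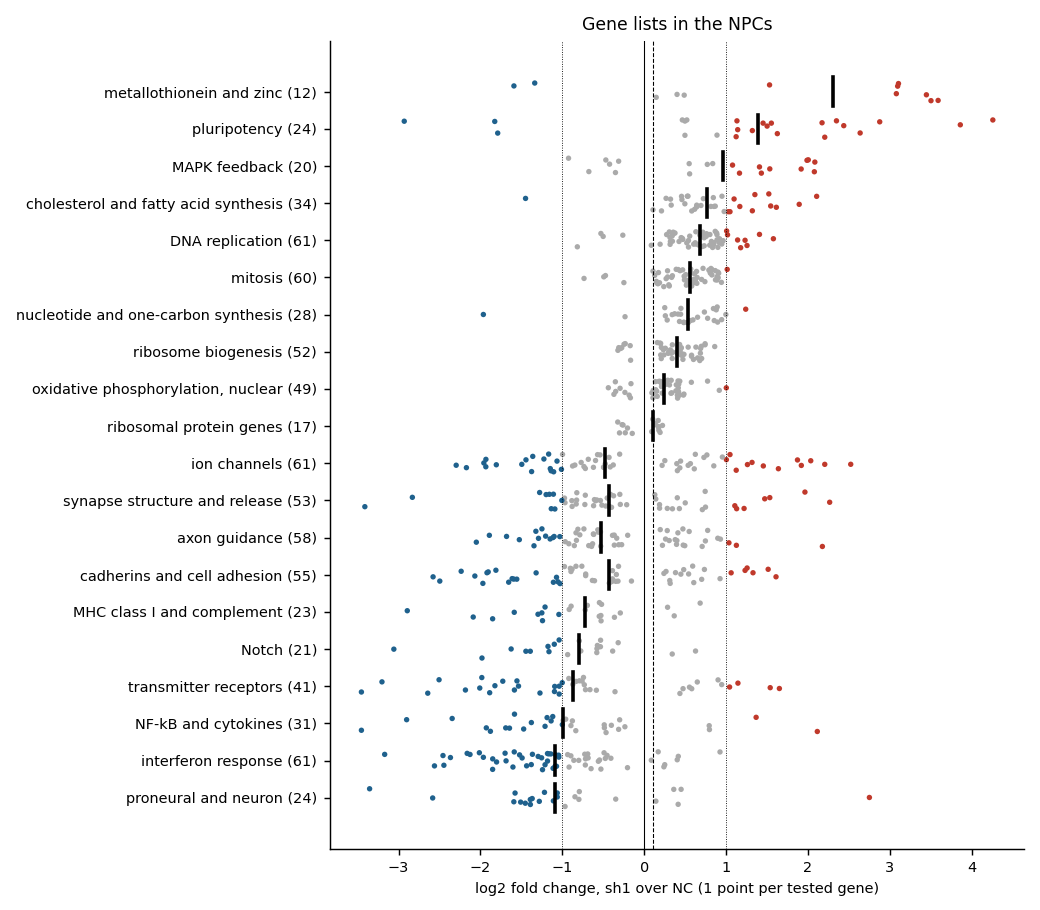
Log2 fold change of sh1 over NC for each tested gene of 20 lists, with the number tested in brackets, a black bar at the list's median, red for called higher and blue for called lower. The dashed line marks the median of all tested genes, 0.11, and the dotted lines the size of 1. The medians from metallothioneins to mitosis lie to the right of it and those from ion channels to proneural genes to the left.

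Called genes had fewer CpG dinucleotides at their starts in the median than the others. A promoter window of 300 bases from RefSeq was found for 7920 of the 9860 tested genes. The median number of CpGs in it was 22 in genes that rose (450 with a promoter), 21 in genes that fell (891) and 27 in genes not called (6579). Windows with fewer than 10 CpGs made up 26.7% of the genes that rose, 29.7% of those that fell and 10.2% of those not called. Of 500 genes with 0 to 4 CpGs 11.2% rose and 28.6% fell, and of 1910 genes with 35 or more 3.77% rose and 8.85% fell. Called genes also had lower levels: the median of the mean CPM was 6.09 in genes that rose, 4.36 in those that fell and 56.3 in those not called, and the part of level in the CpG counts was not tested. By chromosome, the share that rose ran from 4.0% on chromosome 17 to 11.9% on chromosome 21, and the share that fell from 8.33% on chromosome 21 to 16.0% on chromosome 4, and chromosome 21 held only 84 tested genes.

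The hairpins sh1 and sh4 left KDM2A at levels whose difference was not called and differed at other genes. KDM2A was at 92.6, 95.7, 102, 93.8 and 91.3 CPM in sh4 libraries 1 to 5, and sh1 over sh4 was -0.05 ± 0.056 on the log2 scale, with a 95% interval of -0.16 to 0.07 and an adjusted p of 0.582. By the same rule 215 genes (2.18%) were higher with sh1 than with sh4 and 241 (2.44%) lower. This test uses no NC library. The values against NC given next for both hairpins share the same 5 NC libraries. PRTG, protogenin, a receptor of the early neural tube, was at 1312, 1208, 1264, 1278 and 1265 CPM with NC, 2587, 2817, 2774, 2453 and 2181 CPM with sh1 and 1327, 1223, 1313, 1170 and 1052 CPM with sh4. Only the sh1 libraries stood apart, with log2 fold changes over NC of 1.02 ± 0.069 for sh1 and -0.06 for sh4 and a difference of 1.07 ± 0.069 (adjusted p = 3.1e-10). The call against NC was lost without sh1 library 2 (0.985) or sh1 library 3 (0.993) and with scaling by library size alone (0.881). CP, the copper-binding ferroxidase, with counts not all whole, was at 10.1 ± 1.02 CPM with NC, 33.9, 32.7, 33.1, 26.8 and 23.5 CPM with sh1 and 9.78, 6.73, 6.41, 7.29 and 7.18 CPM with sh4, and sh1 over sh4 was 2.00 ± 0.12.

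LMX1A and PAX6, transcription factors of the neural tube, were also higher with sh1 than with sh4. LMX1A, of the roof plate and midbrain, was at 7.41, 7.52, 5.53, 8.34 and 9.18 CPM with NC, 23.9, 24.5, 22.9, 21.8 and 19.1 CPM with sh1 and 1.10, 0.880, 1.19, 1.11 and 1.51 CPM with sh4. PAX6, of forebrain and eye progenitors and with counts not all whole, was at 17.0, 16.8, 16.0, 15.7 and 19.6 CPM with NC, 29.3, 25.7, 30.4, 28.1 and 28.9 CPM with sh1 and 3.41, 2.85, 3.05, 3.59 and 2.97 CPM with sh4. The order was sh1 above NC above sh4 in both, with no overlap, and sh1 over sh4 was 4.27 ± 0.15 and 3.16 ± 0.093. In the roof plate list sh1 was above sh4 in 5 of 14 genes, and in the forebrain list in 5 of 9.

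In the other direction, IGF2, the imprinted insulin-like growth factor, was at 22.4, 26.7, 22.4, 22.7 and 24.5 CPM with NC, 6.71, 4.55, 6.99, 8.76 and 9.14 CPM with sh1 and 59.0, 61.6, 69.7, 64.9 and 62.9 CPM with sh4. Against NC it fell with sh1 (log2 fold change -1.71) and rose with sh4 (1.42), and sh1 over sh4 was -3.13 ± 0.11 (adjusted p = 3.88e-14). COL6A3, a collagen, and LAMA4, a laminin, were at 167 ± 14.0 and 12.9 ± 0.757 CPM with sh1 and at 674 ± 77.7 and 54.5 ± 4.45 CPM with sh4. In the mesenchyme list sh1 was under sh4 in 14 of 49 genes and above in 1. NTRK2, CNR1 and SFRP4 were also lower with sh1: their sh4 levels were 151 ± 3.98, 415 ± 54.8 and 695 ± 73.9 CPM, and sh1 over sh4 was -1.46 ± 0.055, -1.08 ± 0.08 and -1.58 ± 0.069. DTX3 was higher with sh1 than with sh4, with a log2 difference of 1.43 ± 0.085. Lists of metallothioneins, sterol synthesis and replication held no gene that was higher with sh1 than with sh4 by this rule, and 1 that was lower, MT1G, whose difference lies at the threshold. Their medians against NC were 2.30, 0.77 and 0.69 with sh1 and 2.11, 0.76 and 0.50 with sh4.

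**Figure D4:**
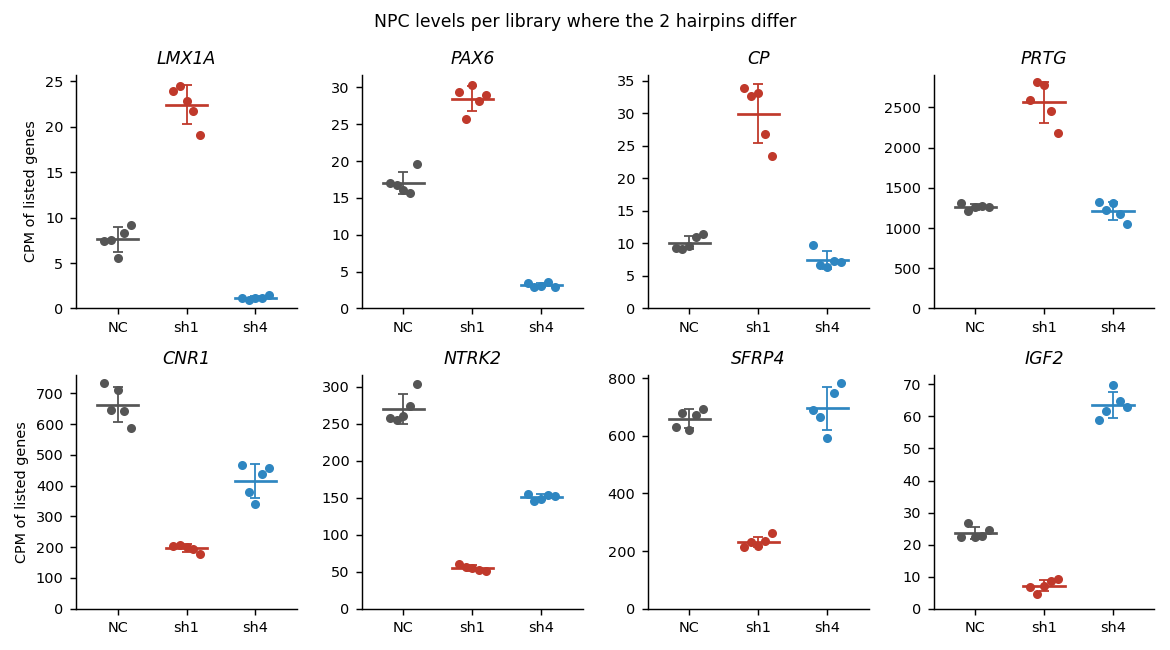
CPM of listed genes in each NC (grey), sh1 (red) and sh4 (blue) library of the NPCs for 8 genes, libraries 1 to 5 from left to right, with a bar at the mean and SD as the error bar. The sh1 libraries lie above both other groups in the upper row and below both in the lower row.

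The same hairpin label occurs in organoids, with NC libraries of their own and 3 libraries a group. There KDM2A was not lower: it was at 96.8 to 105 CPM with NC and 103 to 117 CPM in the libraries labelled sh1 (log2 fold change 0.14 ± 0.068, adjusted p = 0.127). The organoid NC libraries also held the pluripotency gene POU5F1 at 187 to 308 CPM, against 0.0549 to 1.04 CPM in those labelled sh1. Every organoid value below rests on these libraries, and the part of that difference was not tested. By the same rule 2334 of 19704 genes were higher in the libraries labelled sh1 (11.8%) and 1646 lower (8.35%). Of the called NPC genes 1660 had an organoid value. Of the 570 that rose in the NPCs, 121 were called higher and 133 lower in the organoids, and of the 1090 that fell, 118 were called lower and 310 higher. The difference between the NPC and the organoid effect was called, in either direction, for 3034 of 10034 genes (30.2%).

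Some genes moved the same way in both systems. A2M was at 9.99 to 20.5 CPM in the organoid NC libraries and 58.0 to 150.0 CPM in those labelled sh1, a log2 fold change of 2.88 ± 0.53 beside 2.46 in the NPCs. PAPPA and APLN were also higher there, by 1.34 ± 0.20 and 1.28 ± 0.29. PLAGL1 was higher by 1.64 ± 0.13 and SCARA5, a ferritin receptor, by 3.35 ± 0.35 beside 3.42 in the NPCs. Among genes that fell in both, GRIN2B had an organoid log2 fold change of -4.74 ± 0.22, and PPP1R1B, a phosphatase inhibitor of dopamine-responsive neurons, one of -3.32 ± 0.31 beside -3.89 in the NPCs. For GPR12, an orphan receptor, the values were -3.37 ± 0.45 and -4.02.

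Other genes moved in opposite directions. LIN28A was at 215 to 256 CPM with NC and 5.87 to 6.91 CPM in the organoid libraries labelled sh1, a log2 fold change of -5.27 ± 0.24. MT1X, HMGCS1 and SCD, which rose in the NPCs, were lower there, at -4.58 ± 0.29, -1.43 ± 0.23 and -1.39 ± 0.24 on the log2 scale. NTRK2 was at 78.0 to 119 and 414 to 614 CPM and DLK1 at 365 to 387 and 1299 to 2248 CPM, higher by 2.35 ± 0.24 and 2.20 ± 0.19. Of 58 interferon genes with an organoid value 29 were called higher and 2 lower, against 35 of 61 that fell in the NPCs. IFIT1 was higher by 1.30 ± 0.21 and VCAM1 by 1.45 ± 0.36. MAT2A, among the greatest falls of the NPCs, had an organoid log2 fold change of -0.12 ± 0.094 and was not called. GALP was at 0.762 to 1.77 CPM in the organoid NC libraries and listed at 0 in all 3 labelled sh1.

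**Figure D5:**
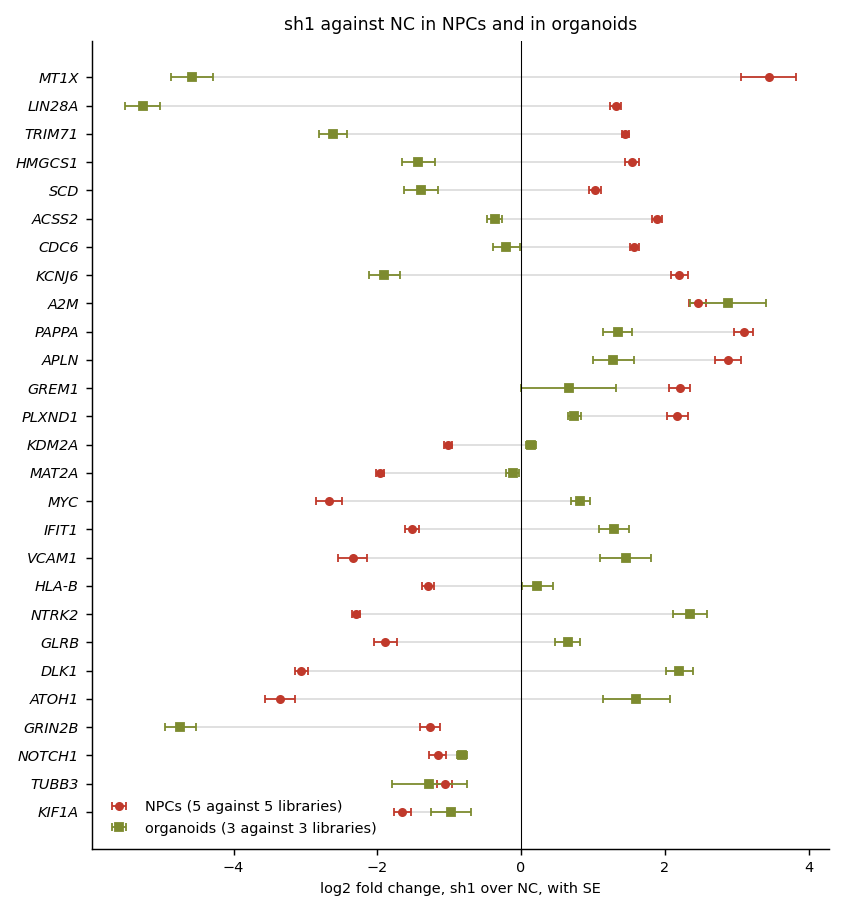
Log2 fold change of sh1 over NC with its SE in the NPCs (red circles, 5 against 5 libraries) and in the organoids (green squares, 3 against 3 libraries) for 27 genes. The 2 symbols lie on the same side of 0 for A2M, PAPPA, APLN and NOTCH1 and on opposite sides for LIN28A, MT1X, NTRK2 and DLK1.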

How the data were processed

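Polyadenylated RNA of the NPC and organoid libraries was sequenced. The authors deposited estimated counts per gene, 1 table for each system, made with STAR and featureCounts on GRCh38.p13 per the submitters' processing notes; versions are not given in the sources used here. Of the deposited NPC values 82.4% were whole; all were rounded to counts, and genes with other values are named as not all whole. Genes were kept by filterByExpr (minimum count 10), scaled by TMM and tested with edgeR 4.0.16 in R 4.3.3 (quasi-likelihood test, Benjamini-Hochberg adjustment), with the NC, sh1 and sh4 NPC libraries in 1 fit and the organoids in their own. Errors are SE for log2 fold changes and SD for CPM. The organoid and NPC effects were compared in a fit over both tables, which were made separately. DESeq2 1.42.0 was an alternative. The procedure was tested on simulated data for this comparison over 9812 genes. There 49 of 50 genes changed by -2 on the log2 scale were called, and 0 of 9612 unchanged genes. Of the unchanged genes 9 had an adjusted p under 0.05. The smallest change made was 1.5 in size. A change near the size of 1, or a table in which nearly all genes differ, was not tested.

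The members and the 51 gene lists were chosen with earlier results of these data known. Genes named are KDM2A; the 15 highest and 15 lowest log2 fold changes at a mean log2 CPM of at least 3; the 15 greatest rises and falls in CPM; up to 8 called members of each list and its 2 most abundant; the 10 most different each way between sh1 and sh4; and the 10 most alike each way and 10 most opposed between NPCs and organoids. CDH2, IFI6, IFIT3, ISG15, LIN28B and TUBB3 were named after their values were seen. Replicate chi-square tests within each NPC group found no library deposited as a copy of another. Organoid libraries and pairs from different groups were not compared in this way. Promoter sequences are reference sequence from RefSeq (GRCh38.p14), matched by symbol, and no coordinate of the counting annotation is printed. A few genes that the rule names are not reported here.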

Additional observations from a re-analysis of the deposited data

Results flagged for a closer look

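Of 51 genes examined by library, each with an NC and an sh1 group of 5, 1 of 102 groups (0.98%) held a library whose gap to its nearest neighbour exceeded Dixon's 95% critical value; chance gives about 1 in 20. TRAF1 was at 12.9 CPM in NC library 5, against 8.7 to 9.83 CPM in the other NC libraries.

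The sh1 effect differed between NPCs and organoids for 42 of the 49 of these genes with an effect in both, by edgeR's quasi-likelihood test of the difference. Over all genes compared it was 3034 of 10034 (30.2%). The 49 genes were chosen with earlier results of these data known, most of them for their changes in the NPCs. Their share therefore reflects that choice and says nothing about genes in general. The organoid side rests on libraries labelled sh1 in which KDM2A was not lower and on NC libraries with high POU5F1, and the part of either was not tested. Each value that follows is the NPC log2 fold change minus the organoid one. For KDM2A it was -1.12.

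Among genes that rose in the NPCs the difference was 8.06 for MT1X, 3.10 for MT2A, 6.62 for LIN28A, 4.10 for TRIM71 and 4.14 for KCNJ6. Lipid genes followed with 3.004 for HMGCS1, 2.45 for SCD, 2.29 for ACSS2 and 2.09 for FADS1. Replication and cell cycle genes were at 1.82 for CDC6, 1.26 for MCM6 and 1.31 for CCND1. For secreted and surface proteins it was 3.06 for KDR, 2.87 for SLC7A8, 2.60 for PRTG, 1.79 for PAPPA, 1.62 for APLN, 1.57 for GREM1 and 1.47 for PLXND1. VARS1 was at 1.14. CP, which rose in both, was at -3.32.

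Among genes that fell in the NPCs the difference was -3.47 for MYC, -1.81 for MAT2A, -1.28 for DDIT3 and -1.27 for TRIB3. For immune genes it was -4.98 for ACKR3, -3.77 for VCAM1, -2.78 for IFIT1, -2.46 for TRAF1 and -1.49 for HLA-B. Neuronal genes were at -4.92 for ATOH1, -4.62 for NTRK2, -2.505 for GLRB, -1.97 for RAB6B, -1.501 for EPHB2, -1.17 for L1CAM and -1.14 for CNR1. DLK1 was at -5.23, IGF2 at -3.13 and DTX3 at -1.84. GRIN2B fell further in the organoids, and its difference was 3.504.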

How the results depend on the processing

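Counts of called genes stayed within 1.5 times their value under every alternative but one: with an adjusted p under 0.05 alone, 4942 genes were higher and 4854 lower, 2723 differed between sh1 and sh4, and 9324 in the organoids. Leaving out 1 library at a time gave 608 to 677 genes that rose, 1179 to 1267 that fell, 455 to 480 between hairpins, 3495 to 3837 in the organoids and 2972 to 3117 for the difference between systems. KDM2A then ranged from -1.06 to -0.985, and the call was lost at -0.993 without NC library 1 and at -0.985 without NC library 3. Scaling by library size alone gave 463 rises and 1494 falls, upper quartile scaling 506 and 1404, DESeq2 612 and 1215, and no filter 717 and 1449.

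The replicate numbers did not pair the samples: correlations of same-numbered sh1 and NC libraries ran from -0.12 to 0.265, and no sh1 library correlated best with its own number. With the replicate number as a block 616 genes rose and 1193 fell, 455 differed between hairpins and 3931 in the organoids, and KDM2A was at -1.01.

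Of 434 named genes 391 kept their call and direction under every alternative run for them, at most 17 each, and 27 changed without 1 library. For these genes signs turned only near 0. With library size alone, the log2 fold change was -0.00175 for MAP4K4, -0.00846 for TOP2A, -0.0304 for ATP5F1A, -0.0433 for ATP5F1B, -0.0539 for CTNNB1, -0.033 for TGFBR1, -0.0451 for RPLP0 and -0.082 for SLC25A3; with upper quartile scaling it was -0.0101 for CTNNB1, -0.0016 for RPLP0 and -0.0385 for SLC25A3. List medians turned sign without the genes whose counts were not all whole, to 0.342 for cyclic nucleotide signalling, -0.273 for growth factors and receptor tyrosine kinases and 0.443 for protocadherins. The growth factor list was at -0.0366 with only the 2 groups fitted, and ribosomal protein genes at -0.0322 with library size alone. The cause of these changes was not tested. Of 867 pairs of list and alternative 693 moved by less than the spread, 28 moved up and 141 down. Genes near 1 CPM rest on few counts in each library.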

Other observations

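The counts and medians of the other lists follow, beside 6.28% higher and 12.1% lower over all tested genes. In the midbrain, hindbrain and HOX list 5 of 8 tested genes rose and none fell (median 1.40). MAPK feedback had 10 of 20 higher (median 0.96), neural progenitor genes 7 of 26 higher and 2 lower (0.46), neural crest and placode 5 of 19 higher and 4 lower (0.45), and NODAL, TGF-beta and BMP 8 of 43 higher and 2 lower (0.15). Unfolded protein and heat shock genes had 1 of 32 higher (0.42), p53 targets 1 of 14 in each direction (0.37), and glycolysis and hypoxia 1 of 25 lower (0.36). Single calls in these 3 lists lay near the threshold: the p53 riser RRM2B lost its call in several alternatives, among them DESeq2 (0.993), the unfolded protein riser HSPE1 without sh1 library 2 (0.999), and the glycolysis faller P4HA2 without NC library 5 (-0.935). Retinoic acid genes had 2 of 15 in each direction (0.18), forebrain genes 4 of 9 higher and 2 lower (0.97), and endothelium, blood and microglia genes 5 of 14 higher and 3 lower (0.73).

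Lists with negative medians were led by melanin and eye, with 5 of 11 lower (-0.96), and trophoblast and amnion, with 4 of 9 lower and 2 higher (-0.67). Mesoderm, endoderm and muscle had 5 of 20 in each direction (-0.53), protocadherins 4 of 32 lower and 1 higher (-0.49), and astroglia and oligodendrocyte genes 7 of 17 lower and 2 higher (-0.47). Immediate early genes had 3 of 17 lower and 1 higher (-0.38), roof plate genes 3 of 14 in each direction (-0.37), Hedgehog 3 of 10 lower (-0.31), and epithelium and keratins 10 of 30 lower and 6 higher (-0.29). Cyclic nucleotide signalling had 5 of 29 lower and 3 higher (-0.29), the MYC family 1 of 8 lower (-0.29), and WNT 4 of 36 in each direction (-0.23). H3K36 and CpG island chromatin had 1 of 31 in each direction, KDM2A being the lower one and TET1 the higher one, which lost its call with upper quartile scaling, at 0.993 (median -0.21), and the RAS and MAP kinase cascade 4 of 48 lower (-0.06).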
